A study of Mus musculus with 6 samples.

Results

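The genes described here are Arntl, Clock and Npas2, the positive arm of the circadian clock, and Nfil3, Cry1, Cry2, Rora and Rorb. The latter were listed as genes of phase opposite to or later than Per and Dbp, and Cry1 and Cry2 among them encode repressors. All were chosen by symbol, 8 of the 24062 gene symbols in the deposited table. All 8 passed the filter on low counts that left 16722 genes for testing. RNA was sequenced from auditory nerve dissected out of the cochlea in young adult mice, 3 wildtype and 3 Vcan knockout, all given the strain C57BL/6 in the labels, while the design text has C57BL/6J for the wildtype mice. Vcan encodes versican, a matrix proteoglycan that carries chondroitin sulfate chains, and the design text calls the knockout mice versican deficient. Each library held the nerves of both cochleae of 1 mouse. The sources used here do not give the part of Vcan that was altered, the cells in which it was lost, the sex of the mice or the hour at which tissue was taken.

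The clock of a mammalian cell is a feedback loop of transcription. BMAL1, the product of Arntl, pairs with CLOCK or NPAS2, and the pair binds E-box sequences and switches on the Per and Cry genes, the REV-ERB genes Nr1d1 and Nr1d2 and the PAR bZIP output genes Dbp, Tef and Hlf. PER and CRY proteins then repress that pair, REV-ERB proteins repress Arntl and some other genes of its phase at ROR elements, and ROR proteins activate them there. Arntl and Npas2 transcripts are therefore known to be high when Dbp and Per transcripts are low. NFIL3 is a repressor at the D-box elements that DBP, TEF and HLF activate.

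The promoters of the 8 genes show which of these elements lie close to a start site. RefSeq windows of GRCm38.p6, from 250 bases before a start to 50 after it, were found for all 8 genes (12 windows) and for 9 of 11 clock repressor and output genes (11 windows). The windows were searched on both strands for CACGTG (the E-box), TAGGTCA and TAGGTTA (the ROR element core and a variant of it), TTATGTAA and TTACGTAA (D-box forms) and CCAAT (the CCAAT box). No motif overlaps another in the sites shown. TAGGTTA and CCAAT were added after the sequences were seen. The sites below are those of the ROR element core and the E-box among the 8 genes, each 30 bases long and written along the gene's strand, with the motif or its reverse complement in capitals.
Arntl (chr7:113207494-113207523, plus strand): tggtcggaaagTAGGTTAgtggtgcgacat
Arntl (chr7:113207530-113207559, plus strand): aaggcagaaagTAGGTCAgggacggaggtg
Nfil3 (chr13:52981033-52981062, minus strand): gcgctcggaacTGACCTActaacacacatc
Cry1 (chr10:85185097-85185126, minus strand): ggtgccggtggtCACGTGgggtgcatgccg

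Of the 8 genes, Arntl and Nfil3 held TAGGTCA, which occurs in 2.61% of all 32851 windows in the table. Arntl also held TAGGTTA (1.44% of windows), whose match begins at −6 from the downstream Arntl start, and its TAGGTCA begins at 31. The Nfil3 match begins at −12. Cry1 held the E-box CACGTG, beginning at −60, against 7.15% of all windows and 4 of the 9 repressor and output genes (Bhlhe41, Ciart, Per1 and Tef). Neither D-box form was found in a window of the 8 genes. These matches are letters in a short window and not measured binding.

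Arntl and Npas2 are shown in full because they were the members whose knockout libraries all lay above the wildtype libraries, although neither passed correction over all genes. The 250 bases before the most upstream start among the windows of each are given, with CCAAT or its reverse complement in capitals. RefSeq has the genes themselves begin further upstream, Arntl at 113178471 and Npas2 at 39193702.
Arntl (chr7:113207215-113207464, plus strand): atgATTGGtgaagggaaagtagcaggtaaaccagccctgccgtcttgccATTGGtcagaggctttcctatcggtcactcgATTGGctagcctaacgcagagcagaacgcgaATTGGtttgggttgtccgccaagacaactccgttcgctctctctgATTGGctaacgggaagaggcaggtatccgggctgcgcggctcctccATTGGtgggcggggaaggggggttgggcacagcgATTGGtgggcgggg
Npas2 (chr1:39194022-39194271, plus strand): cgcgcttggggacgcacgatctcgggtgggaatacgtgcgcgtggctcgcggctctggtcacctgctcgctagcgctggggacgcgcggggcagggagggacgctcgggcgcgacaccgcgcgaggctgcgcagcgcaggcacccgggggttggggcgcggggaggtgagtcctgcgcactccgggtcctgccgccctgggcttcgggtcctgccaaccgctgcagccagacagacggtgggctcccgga

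The Arntl stretch holds 7 CCAAT boxes, all in the reverse orientation, and the Npas2 stretch holds 0. At least 1 occurs upstream of 33.9% of starts. At least 7 occur in 3 of the 32851 windows, of which 2 are the overlapping windows of Arntl and the third belongs to Gm1096. The Npas2 window held none of the motifs searched.

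Libraries held 74530860 to 92513887 gene counts, and values below are CPM, counts scaled to a common library size after TMM normalisation. Vcan was at 8.36, 9.61 and 7.32 CPM in wildtype replicates 1 to 3 and at 5.44, 2.70 and 2.88 CPM in the knockout replicates, so the groups did not overlap (log2 fold change −1.20, SE 0.32, edgeR adjusted p = 0.558; adjusted p = 0.039 in DESeq2). Wildtype replicate 3 stood apart from the rest: it held the highest or the lowest value of the 6 libraries for 26.0% and 28.6% of the genes tested. Markers of the neurons summed to 7176 CPM there against 12091 to 13875.5 in the other libraries. Values without this library are given beside the results it moved most.

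No gene of the 8 passed correction over all genes tested. The share of all genes past the adjusted threshold of 0.05 was 0.138% (23 of 16722 genes; edgeR quasi-likelihood test, adjusted by Benjamini and Hochberg's method). DESeq2 on the same counts also called 0 of the 8, against 1.43% of all genes. The authors' deposited table, made with DESeq2 too, likewise lists 0 of the 8 under 0.05, against 1.34% of its genes. At an unadjusted p under 0.05 there were 2, Arntl and Npas2, both higher in knockout nerve, where 2.56% of all genes tested were higher at that level. The same pair were the members whose groups did not overlap, with every knockout library above every wildtype library, which held for 5.42% of all genes in that direction. The members were chosen with earlier results of these data known, so their counts beside these shares are not an independent comparison. Of the 8 fold changes 4 were above 0 and 4 below, and their median log2 value was 0.01, against −0.01 over all genes tested. A change in a bulk sample cannot tell fewer cells of a type from less RNA per cell. As the hour of collection is not given, differences in clock transcripts between the genotypes, and the ratios below, cannot be told apart from a difference in that hour.

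**Figure D1:**
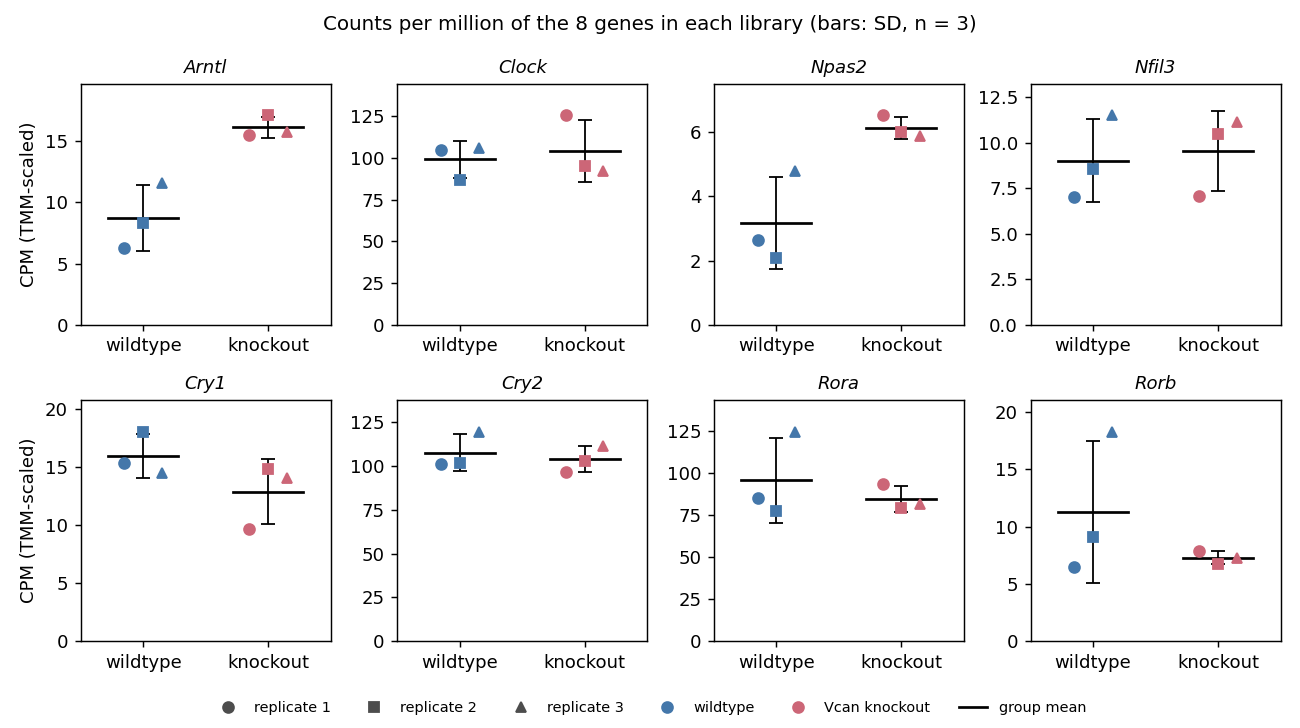
TMM-scaled CPM of the 8 genes in each wildtype (blue) and Vcan knockout (red) library, with replicate numbers as marker shapes, the group mean as a line and the SD (n = 3) as a bar. The 3 knockout libraries lie above the 3 wildtype libraries for Arntl and Npas2, the groups overlap for the other genes, and wildtype replicate 3 stands alone at the top for Rorb.

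Arntl encodes BMAL1, the partner without which neither CLOCK nor NPAS2 can drive the loop. It lies on chromosome 7 (113178471 to 113314126, GRCm38.p6, gene identifier 11865). Its counts were 522, 748 and 988 in wildtype replicates 1 to 3 and 1177, 1581 and 1358 in knockout replicates 1 to 3, or 6.26, 8.32 and 11.6 against 15.5, 17.1 and 15.8 CPM. Every knockout library lay above the highest wildtype library, wildtype replicate 3. The means were 8.72 ± 2.67 and 16.1 ± 0.869 CPM (SD, n = 3), a log2 fold change of 0.89 (SE 0.25, 1.85-fold; edgeR adjusted p = 0.592, unadjusted p = 0.0091). The nearest it came to the threshold was in DESeq2 (log2 fold change 0.88, adjusted p = 0.0766). The authors' deposited DESeq2 comparison lists it at an adjusted p of 0.0814 with a smaller log2 fold change of 0.71. The reason for the smaller value was not examined. With 1 library left out at a time the log2 fold change ran from 0.70, without wildtype replicate 1, to 1.14, without wildtype replicate 3, and the unadjusted p stayed between 0.000935 and 0.0326.

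Npas2 encodes the CLOCK paralog that can take its place beside BMAL1 (chromosome 1, 39193702 to 39363240, gene identifier 18143). It was the least abundant of the 8 genes by count, with 221, 186 and 410 counts in the wildtype and 496, 554 and 506 in the knockout libraries. These are 2.65, 2.07 and 4.80 CPM against 6.54, 6.00 and 5.87 CPM. As for Arntl, wildtype replicate 3 was the highest wildtype library and lay below all 3 knockout libraries. The log2 fold change was 0.95 (SE 0.34, 1.93-fold; edgeR adjusted p = 0.827, unadjusted p = 0.0276; DESeq2 adjusted p = 0.301). Leaving out wildtype replicate 3 raised it to 1.37 (unadjusted p = 0.001), and leaving out wildtype replicate 2 lowered it to 0.72. The unadjusted p was above 0.05 in 5 of the 6 fits without 1 library, with a range of 0.001 to 0.0849.

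Clock, the usual partner of BMAL1 and an acetyltransferase (chromosome 5, 76209868 to 76305603, gene identifier 12753), was counted at a far higher level than either. It was at 105, 86.6 and 106 CPM in wildtype and at 126, 94.9 and 92.0 CPM in knockout nerve. The groups overlapped, with knockout replicate 1 highest and wildtype replicate 2 lowest. Knockout differed from wildtype by 0.07 on the log2 scale (SE 0.17; edgeR adjusted p = 0.9996). The sign turned without knockout replicate 1 (−0.08) and without wildtype replicate 2 (−0.02), and the value was 0.12 without wildtype replicate 3. Arntl2, the BMAL1 paralog outside the 8 genes, was at 8.87, 7.96 and 5.10 CPM in wildtype and 10.1, 8.59 and 10.8 CPM in knockout nerve. Its groups overlapped too (log2 fold change 0.43, SE 0.25, edgeR adjusted p = 0.9996; 0.22 without wildtype replicate 3). In wildtype replicate 3 Arntl2 had its lowest value of the 6 libraries, while Arntl and Npas2 had their highest wildtype values there.

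The spread within a group was larger in wildtype than in knockout nerve for Arntl, Npas2, Rora, Rorb and, slightly, Cry2. On the log2 scale the SD of Arntl was 0.44 in wildtype and 0.08 in knockout nerve, and that of Npas2 was 0.62 and 0.08. The median over the 13542 genes with a mean of at least 2 CPM was 0.25 in wildtype and 0.21 in knockout nerve. A smaller SD than that of Arntl was found in 77.3% of these genes in wildtype and in 13.3% in knockout nerve, and for Npas2 the shares were 88.0% and 14.9%. Rorb was the most unequal, with an SD of 0.77 in wildtype and 0.11 in knockout nerve, and Rora was at 0.36 and 0.13. The difference in spread between the groups was not tested.

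The ROR genes encode nuclear receptors that activate Arntl at the ROR element. Rora (chromosome 9, 68653404 to 69388246, gene identifier 19883) was at 85.3, 77.7 and 125 CPM in wildtype and at 93.7, 79.1 and 81.7 CPM in knockout nerve. Wildtype replicate 3 was the highest library, and the others lay between 77.7 and 93.7 CPM. Its log2 fold change was −0.18 (SE 0.20; edgeR adjusted p = 0.9996) with all libraries and 0.05 without wildtype replicate 3.

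Rorb, the ROR gene known from retina, cortex and sensory pathways (chromosome 19, 18930609 to 19111196, gene identifier 225998), had the most negative fold change of the 8 genes, and it rested on 1 library. Its counts were 536, 820 and 1562 in wildtype and 598, 621 and 622 in knockout nerve, or 6.43, 9.12 and 18.3 against 7.88, 6.73 and 7.22 CPM. Wildtype replicate 1 lay below all 3 knockout libraries. The log2 fold change of −0.63 (SE 0.38; edgeR adjusted p = 0.9996) became −0.10 without wildtype replicate 3 and −0.91 without wildtype replicate 1 (unadjusted p = 0.65 and 0.0328).

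Several marker lists were also at an extreme in wildtype replicate 3, some high as Rora and Rorb were and some low. All 6 markers of hair cells and their supporting cells were highest there, with a sum of 297 CPM against 158 and 158 in the other wildtype libraries and 165 to 213 in the knockout libraries. For cochlear fibrocytes and otic mesenchyme 4 of 5 markers were highest there, with a sum of 20031 CPM against 8734 to 18540 in the other libraries. For the spiral ganglion neurons 8 of 10 markers were lowest there. No marker of these 3 lists was at 0 in all libraries, and their part in the Rora and Rorb values was not tested. Markers of Schwann cell myelin (7400 CPM) and of central neurons (393 CPM) also had their lowest sum in this library. Erythroid markers had their highest sum there (37.9 CPM).

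The cryptochromes are the repressors that hold BMAL1 and CLOCK inactive, and Cry1 is known to peak later than the Per genes. Cry1 (chromosome 10, 85131700 to 85185054, gene identifier 12952) was at 15.3, 18.1 and 14.5 CPM in wildtype and 9.71, 14.9 and 14.1 CPM in knockout nerve. Knockout replicate 1 was the lowest library, and knockout replicate 2 lay just above wildtype replicate 3. With all libraries its log2 fold change was −0.31 (SE 0.21; edgeR adjusted p = 0.9996) and −0.14 without knockout replicate 1.

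Cry2 (chromosome 2, 92403646 to 92434085, gene identifier 12953) was at 101, 102 and 119.6 CPM in wildtype and at 96.8, 103 and 112 CPM in knockout nerve. The groups overlapped, with the lowest library in knockout and the highest in wildtype nerve (log2 fold change −0.05, SE 0.13, edgeR adjusted p = 0.9996), and the value was 0.03 without wildtype replicate 3. Of the exon bases of Cry2, 4.67% are also exons of D930015M05Rik on the opposite strand, and the sources do not say whether counting used strand. For Arntl and Rora the shared part was 0.439% and 0.627%, and the other 5 genes shared no exon bases with another gene.

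Nfil3, the D-box repressor whose promoter shares the ROR element core with Arntl (chromosome 13, 52967209 to 52982878, gene identifier 18030), had overlapping groups. It was at 7.0, 8.55 and 11.5 CPM in wildtype and at 7.06, 10.5 and 11.2 CPM in knockout nerve. The ranges of the groups were nearly the same. Its fold change was 0.09 on the log2 scale (SE 0.27; edgeR adjusted p = 0.9996), and it ran from −0.07, without wildtype replicate 1, to 0.29, without wildtype replicate 3. Within wildtype nerve the libraries took the same order for Nfil3 as for Arntl, with replicate 1 lowest and replicate 3 highest.

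**Figure D2:**
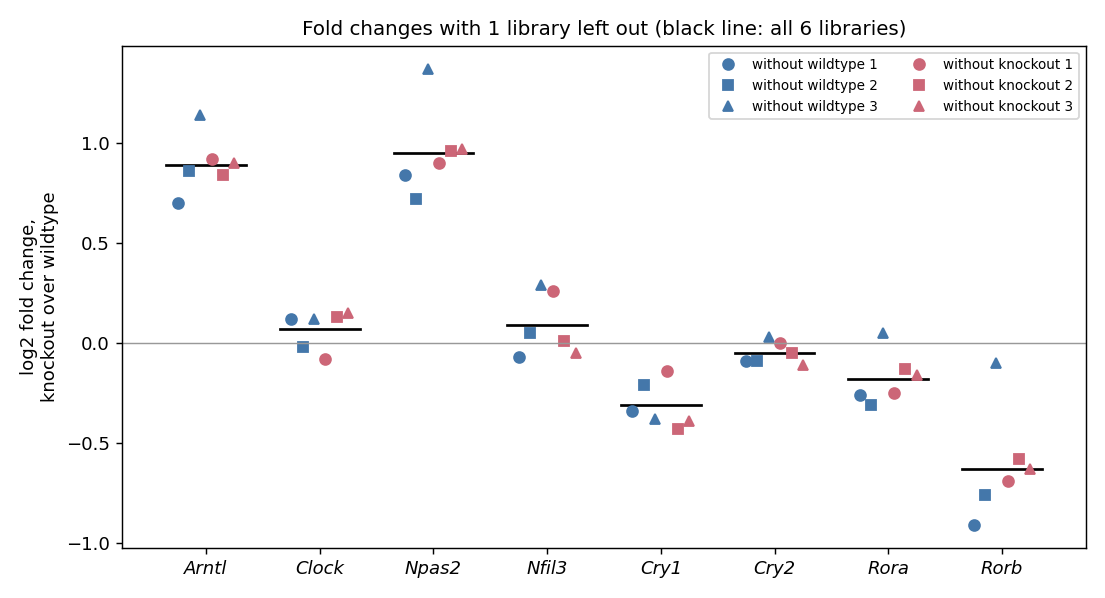
The log2 fold change (knockout over wildtype) of each gene from edgeR with all 6 libraries (black line) and with 1 library left out (blue for a wildtype and red for a knockout library). Arntl and Npas2 stay at 0.70 or above in every fit, and Rorb moves from −0.63 to −0.10 without wildtype replicate 3.

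Levels can be compared roughly between genes once divided by exon length, here in CPM per kilobase of the union of annotated exons. Which of these exons are used in nerve was not examined, so the order between genes is approximate. Cry2 stood highest, at 17.0 ± 1.66 in wildtype and 16.4 ± 1.17 in knockout nerve (SD, n = 3), and its lowest library (15.3) lay above the highest of any other of the 8 genes (9.55, Rora). Rora (7.34 ± 1.93) and Clock (7.22 ± 0.791) followed in wildtype and did not differ beyond their spread. Cry1 (4.79 ± 0.558) and Nfil3 (4.45 ± 1.14) came next and overlapped each other as well. Arntl (1.16 ± 0.355), Rorb (1.02 ± 0.56) and Npas2 (0.662 ± 0.30) were lowest in wildtype, with overlapping ranges. In knockout nerve these 3 separated into Arntl at 2.14 ± 0.115, Npas2 at 1.28 ± 0.0737 and Rorb at 0.657 ± 0.0523 (SD, n = 3), with no overlap between them. Arntl stood below Clock in every library.

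**Figure D3:**
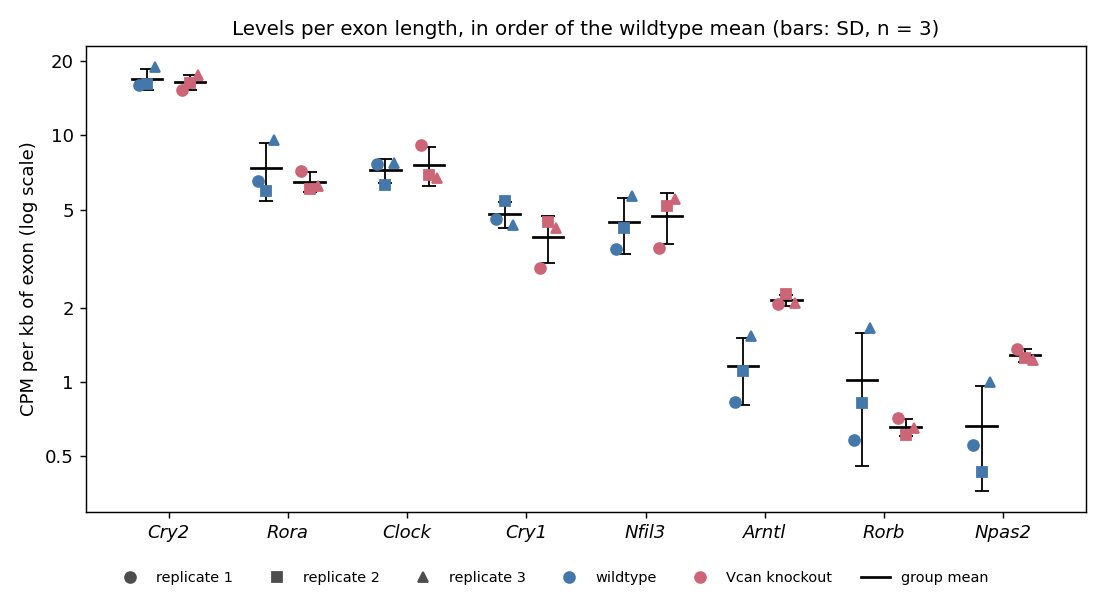
CPM per kilobase of exon (log axis) for the 8 genes in each wildtype (blue) and knockout (red) library, in order of the wildtype mean, with group means and SD (n = 3). Cry2 lies above all others, and Arntl, Rorb and Npas2 form the lowest set, in which the knockout libraries of Arntl and Npas2 lie above their wildtype libraries.

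Genes that the BMAL1 pair drives or that act in its feedback had lower values in knockout nerve, and whether they passed the threshold depended on the tool. Of 11 repressor and output genes (Per1, Per2, Per3, Nr1d1, Nr1d2, Ciart, Bhlhe40, Bhlhe41, Dbp, Tef and Hlf), 0 passed over all genes in edgeR, while 5 passed in DESeq2 (Per1, Per2, Ciart, Dbp and Hlf), all lower. All 11 fold changes were below 0. Their median was −0.36 (log2), against −0.01 over all genes. At an unadjusted p under 0.05 there were 6, all lower in knockout nerve, against 2.64% of all genes. In 7 of the 11 every knockout library lay below every wildtype library, against 4.93% of all genes. The groups overlapped for Per3, Nr1d2, Bhlhe40 and Bhlhe41, and Bhlhe40 was nearest to 0 at −0.03. This list was known to be lower when it was chosen.

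Per2, a repressor of the BMAL1 pair, was at 49.2, 44.9 and 56.7 CPM in wildtype and 27.7, 19.9 and 21.5 CPM in knockout nerve (−1.13 on the log2 scale, SE 0.18; edgeR adjusted p = 0.136, DESeq2 adjusted p = 3.86e-05). Dbp, the D-box activator, was at 62.5, 76.5 and 59.2 CPM against 36.2, 33.7 and 37.6 CPM (−0.88 on the log2 scale, SE 0.14; edgeR adjusted p = 0.167, DESeq2 adjusted p = 6.84e-05). The log2 fold changes of the others of smallest p were −1.47 for Per1, −0.96 for Ciart, a CRY-like repressor of the pair, −0.68 for Hlf and −0.33 for Tef. Per1 was at 223 CPM in wildtype replicate 3 and at 99.4 and 72.0 CPM in the other wildtype libraries, and its value was −0.86 without that library. Nr1d1, the REV-ERB gene that represses Arntl, was at 151, 165 and 149 CPM in wildtype and 132, 132 and 143 CPM in knockout nerve (log2 fold change −0.19, SE 0.12, edgeR adjusted p = 0.9996). Accessory clock genes, which encode kinases, ubiquitin ligases and cofactors, centred near 0. None of the 30 passed over all genes in edgeR, 0 had an unadjusted p under 0.05, and their median log2 fold change was −0.02. Those of smallest p, the deubiquitinase Usp2 and the kinase Sik1, were at 133 and 77.3 CPM in wildtype replicate 3 and at no more than 47.8 and 30.3 CPM in any other library. Their log2 fold changes of −0.84 and −0.73 became −0.15 and −0.05 without wildtype replicate 3.

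**Figure D4:**
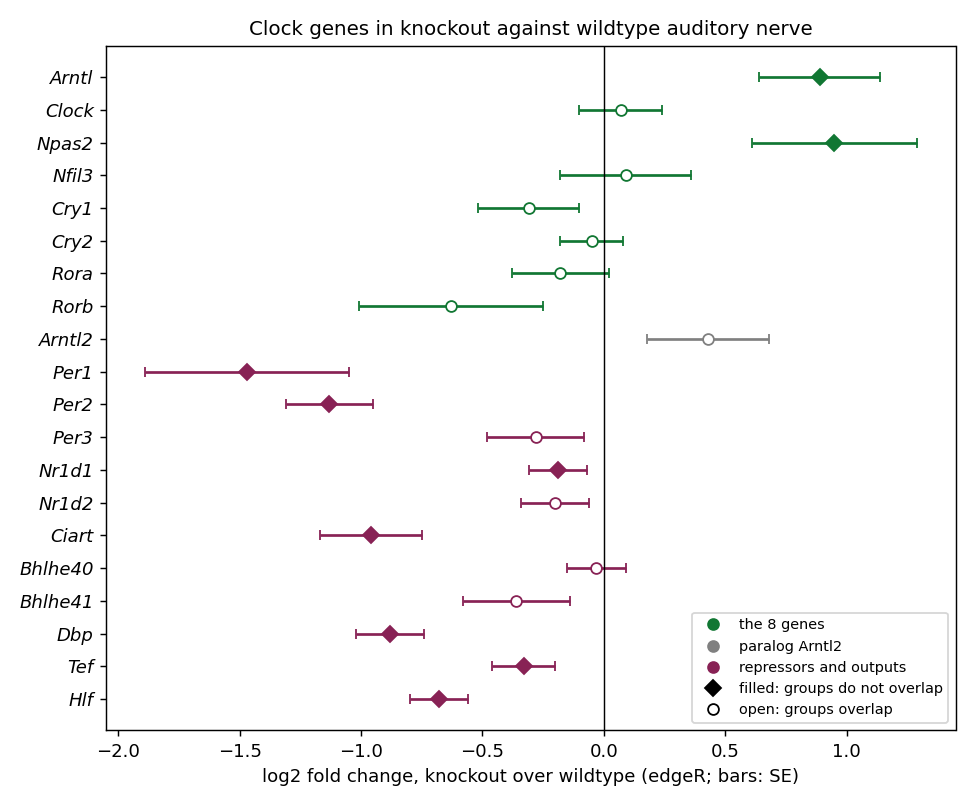
The log2 fold change (knockout over wildtype, edgeR, bars SE) of the 8 genes (green), the paralog Arntl2 (grey) and 11 repressor and output genes (purple), with filled diamonds where the groups do not overlap. Arntl and Npas2 are the filled points to the right of 0, and all 11 repressor and output genes lie to the left.

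The ratio of a pair of genes within a library does not depend on how libraries are scaled. For every Dbp count there were 0.10, 0.109 and 0.195 Arntl counts in the wildtype libraries and 0.428, 0.508 and 0.419 in the knockout libraries. The mean log2 ratio was higher by 1.81 in knockout nerve, or 3.49-fold, with no overlap between the groups. Of the exon bases of Dbp, 18.0% are shared with Sphk2 on the opposite strand. Arntl to Per2 was 0.127, 0.186 and 0.204 in wildtype against 0.561, 0.86 and 0.731 in knockout nerve, a difference of 2.06 on the log2 scale. Arntl to Nr1d1 was 0.0416, 0.0505 and 0.0775 against 0.118, 0.130 and 0.110, a difference of 1.12. Nr1d1 shares 8.55% of its exon bases with Thra on the opposite strand. Gene by gene, Arntl lay higher and Dbp, Per2 and Nr1d1 lay lower in knockout nerve, each without overlap. The Arntl ratios therefore had to separate and restate those differences.

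Among the members themselves, the count of Npas2 relative to Clock was higher in every knockout library than in any wildtype library. The ratio was 0.0253, 0.0240 and 0.0454 in wildtype and 0.0521, 0.0633 and 0.0639 in knockout nerve, a difference of 0.98 on the log2 scale. Nfil3 to Dbp, the D-box repressor over its activator, was 0.112, 0.112 and 0.195 in wildtype and 0.195, 0.311 and 0.297 in knockout nerve. Its groups did not overlap by a narrow margin, with wildtype replicate 3 next to knockout replicate 1, and the difference was 0.96 on the log2 scale. Of the genes in these ratios, Npas2 and Dbp had groups that did not overlap on their own, and Clock and Nfil3 did not. Cry1 to Cry2 (difference −0.28) and Rorb to Rora (−0.35) overlapped between the groups. The difference for Cry1 to Cry2 was −0.14 without knockout replicate 1, −0.15 without wildtype replicate 2 and −0.42 without wildtype replicate 3. For Rorb to Rora it was −0.13 without wildtype replicate 3 and −0.61 without wildtype replicate 1. In exact permutation tests, 2-sided, the 5 ratios without overlap had p = 0.1, the smallest that 3 libraries against 3 allow, and the others had p = 0.3 and 0.4. Adjusted over the 7 ratios these were 0.14, 0.35 and 0.40, so none passed, and none could have passed in this design.

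**Figure D5:**
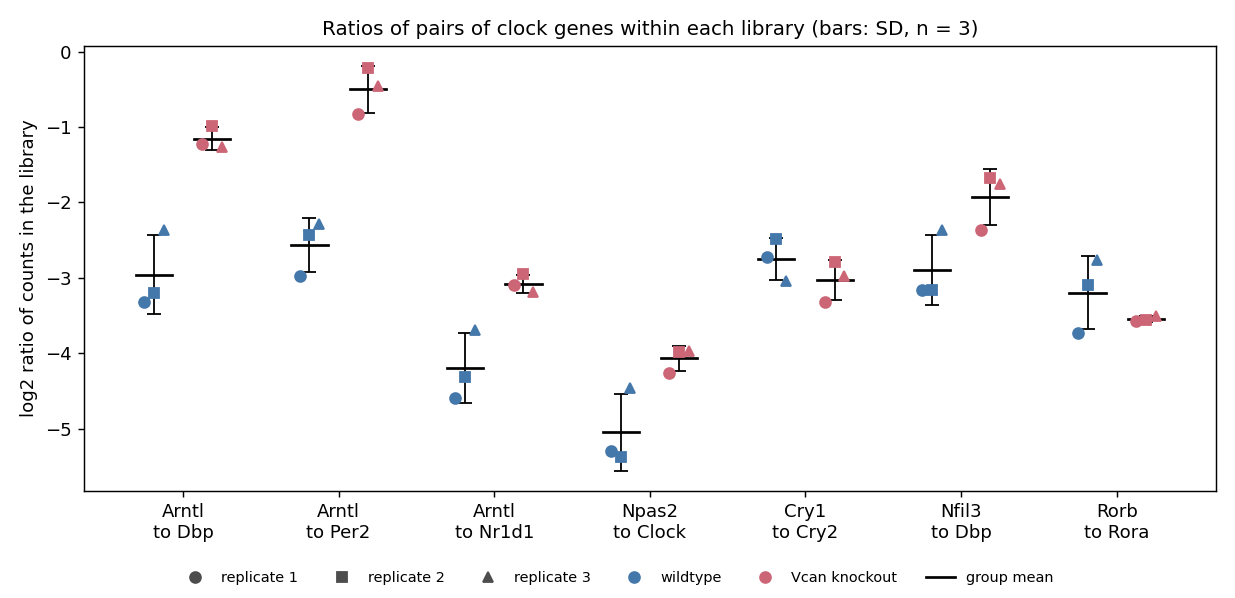
The log2 ratio of the counts of 2 clock genes in each wildtype (blue) and knockout (red) library, with group means and SD (n = 3). The 3 ratios with Arntl over a repressor or output gene, Npas2 over Clock and Nfil3 over Dbp are higher in every knockout library, and the other 2 overlap. The Arntl ratios restate the differences of their single genes, whose groups did not overlap either.

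The genes whose pattern over the 6 libraries was most like that of Arntl were named by the root mean square difference of their log2 CPM, each centred on its own mean, among 12867 genes. They were Krt19, a keratin of simple epithelia, Abcc3, an organic anion exporter, Ccl25, a chemokine, Slc17a5, the lysosomal sialic acid exporter, and Ppp1r27, a phosphatase subunit, at differences of 0.16 to 0.20 on the log2 scale. Each was higher in all 3 knockout libraries than in any wildtype library, with log2 fold changes of 0.85, 1.02, 1.08, 0.81 and 0.92, and none passed in edgeR (adjusted p = 0.252 to 0.853). As these genes were chosen for likeness to Arntl over the same libraries, their separation and fold changes follow from that choice. In DESeq2, Ccl25 and Slc17a5 passed (adjusted p = 0.000385 and 0.00281). Krt19, the nearest, was at 2.90, 4.07 and 6.22 CPM in wildtype and 7.42, 7.09 and 9.24 CPM in knockout nerve. Npas2 took place 26 of the 12867 at a difference of 0.27. The other 6 of the 8 genes took places from 845 (Nfil3) to 10785 (Rorb).

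The summed level of some marker lists did not overlap between the genotypes. The 5 neutrophil markers summed to 17.0, 22.7 and 49.7 CPM in wildtype and to 124, 134 and 67.3 CPM in knockout nerve, all 5 with a positive fold change. None of the 5 had groups that did not overlap. Ltf, a granule protein, was at 121, 63.2 and 9.26 CPM in the knockout libraries and 2.36, 2.73 and 12.5 CPM in wildtype. It made up most of the sum in knockout replicate 1 alone. The 6 endothelial markers summed to 201 to 210 CPM in wildtype and 226 to 235 CPM in knockout nerve, and 3 of them had a positive fold change. Fibroblast markers summed to 1801 to 2111 CPM in wildtype and 1562 to 1701 CPM in knockout nerve, with all 7 fold changes negative. Macrophage markers summed to 215 to 229 CPM in wildtype and 156 to 192 CPM in knockout nerve, with 8 of 10 negative. All 10 astrocyte markers had a negative fold change, although their sums overlapped (1584 to 2129 and 1231 to 1594 CPM). No marker of these lists was at 0 in all libraries, and the part of these cells in the clock gene values was not tested.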

How the data were processed

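RNA sequencing of 3 wildtype and 3 Vcan knockout auditory nerve samples was used, grouped by the titles in the labels. The deposited table holds raw counts per gene, made by the authors with HTSeq on mm10, per the submitters' processing notes, without versions. Strand, aligner and the handling of reads matching several genes are not stated in the sources used here. The same table holds the authors' DESeq2 comparison, used only where named: per the file headers, baseMean (a signal), log2 fold changes, a test statistic (a score), p-values and adjusted p-values.

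The 5 repeated symbols had identical counts and were joined. Genes were kept by filterByExpr, scaled by TMM (factors 0.964 to 1.02) and tested in R 4.3.3 with robust edgeR 4.0.16 quasi-likelihood F tests, 2-sided, adjusted over 16722 genes. The SE is the log2 fold change divided by the square root of F. Alternatives were DESeq2 1.42.0, other scalings and filters, a replicate block and leaving out each library. The pipeline was tested on simulated data. Ratios within a library used 0.5 added to each count. Exon lengths came from GENCODE vM21 and coordinates from RefSeq. For 3 listed genes an older symbol was matched.

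The members and lists were chosen with earlier results of these data known. Named genes were the members, Vcan, the paralog Arntl2, the 6 repressor or output genes of smallest p and those in ratios, 2 accessory genes, and the 5 most like Arntl among genes of at least 2 mean CPM, predicted genes left out. The 2 most abundant markers of each cell type, also in that rule, are given only within sums, and 1 further gene of the rule is not reported here. P-values measure the spread between mice, dissections and libraries together.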

Additional observations from a re-analysis of the deposited data

How the results depend on the processing

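No member passed the adjusted threshold under any alternative run. The 6 alternatives that kept all libraries changed no direction among the 8 genes, with Arntl between 0.88 and 0.93 and Npas2 between 0.94 and 1.04 on the log2 scale. They left the median of all genes between −0.016 and 0.009. The number of genes past the threshold, 23, was 238 in DESeq2 and 15 with at least 10 counts in every library, where fewer genes were tested. With the replicate number as a block it was 3. The labels name no pairing. The replicate numbers follow the sample titles, and the column headers number knockout replicates 2 and 3 otherwise. Deviations among 3 libraries per group cannot settle whether the numbers pair the samples. Same-numbered libraries correlated at 0.426, 0.216 and −0.151 in these deviations. The first of these was the highest of any pair, while wildtype replicate 2 correlated best with knockout replicate 3 (0.368). Leaving out 1 library gave 3 to 14 genes. The log2 fold changes then ran from 0.70 to 1.14 for Arntl and 0.72 to 1.37 for Npas2, and kept their sign for Cry1 (−0.43 to −0.14) and Rorb (−0.91 to −0.10). The sign turned in at least 1 such fit for Clock (−0.08 to 0.15), Nfil3 (−0.07 to 0.29), Cry2 (−0.11 to 0.03) and Rora (−0.31 to 0.05), and the cause was not tested. The differences in ratio kept their sign, from 1.63 to 2.11 for Arntl to Dbp, 1.86 to 2.23 for Arntl to Per2, 0.93 to 1.37 for Arntl to Nr1d1, 0.81 to 1.27 for Npas2 to Clock, 0.83 to 1.23 for Nfil3 to Dbp, −0.42 to −0.14 for Cry1 to Cry2 and −0.61 to −0.13 for Rorb to Rora.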
